A study of Mus musculus with 2 samples.

Results

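The genes described are 36 genes of intraflagellar transport and the primary cilium, found as rows of a list of 32287 genes in mouse parathyroid glands. They were taken by symbol, though with earlier results of these data known, and all 36 were present. By complex they comprised 3 IFT-A genes, 12 IFT-B genes, 5 motor genes, 6 BBSome genes, 4 genes of ciliary GTPases and Tulp3, and 6 genes of the transition zone and basal body. The study's single group held glands grown from embryonic stem cells (ESCs) carrying Pth-tdTomato, a red fluorescent reporter of the parathyroid hormone gene. The ESCs had complemented Gcm2-/- hosts on a BDF1B6 background, in which the missing factor, a regulator of transcription, is required for a parathyroid gland to develop. Replicate 1 came from 3 mice, 9 to 12 weeks old, whose peripheral blood was 50 to 70% chimeric. Replicate 2 came from 5 mice, 6 to 13 weeks old, at 60 to 70%, and each pool mixed males and females. No gland of a wild-type mouse was compared, the labels do not give the ESC line or how many clones were used, and which non-parathyroid cells were host cells was not analysed here. Each pool gave 1 droplet 3' single-cell RNA-seq library, so cell types of the same glands were set against each other, with 2 libraries each.

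A primary cilium is a single, non-moving, microtubule-based rod that projects from a cell and gathers receptors in its membrane. Trains of IFT-B and IFT-A particles carry cargo along it: kinesin-2 moves them to the tip and dynein-2 moves them back. The BBSome is an adaptor that takes membrane proteins out of the cilium, small GTPases of the Arl family load and release lipid-anchored cargo, and the transition zone at the base acts as a gate. Many epithelial cells and fibroblasts carry a primary cilium, whereas most blood cells do not.

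Parathyroid cells were barcodes with at least 5% of UMIs from Pth, which numbered 660 in replicate 1 and 2237 in replicate 2 after filtering. Barcodes with under 1% Pth were clustered without the cilium genes and named from markers, and the ending "like" marks such a name. The classes large enough to test held 232 and 454 fibroblast-like, 106 and 270 endothelial-like, 65 and 139 macrophage-like, 50 and 47 dendritic-like and 36 and 51 T-cell-like cells in replicates 1 and 2. The dendritic-like class joined a cluster led by Cd209a, Igkc and Top2a with a smaller one led by Ccr7. At a finer clustering (resolution 2), 35 cells led by Igkc, Top2a and Cd79a took the name B-cell-like, and the dendritic-like class held 40 and 23 cells. Cd163l1, Trdc and Il23r led the T-cell-like class. Median depth was 37730 and 30583 UMIs per parathyroid cell, against 7589 to 21650 in the other 5 classes. Gcm2 stood at 157 and 159 CPM (UMIs per 1000000 of the class total) in parathyroid cells and at 0.881 to 4.63 CPM elsewhere, and Casr, the calcium-sensing receptor, at 349 and 314 CPM in parathyroid cells. Which part of host Gcm2 is deleted is not given in the labels, so a 3' tag may not check it. Pth itself stood in the other classes at 0.823% to 1.25% of its parathyroid level. It made up 14.3% and 15.8% of UMIs in parathyroid cells and 0.118% to 0.198% in the other 5 classes. Because Pth counts in the class total, it lowers the CPM of all other genes in parathyroid cells. The libraries shared 3 barcode sequences. Fibroblast markers (7 genes) summed to 16.8 and 122 CPM in parathyroid cells, and their part in the results was not tested. Markers of multiciliated cells (6 genes), whose motile cilia use the same transport genes, summed to 34.3 and 36.01 CPM in parathyroid cells and to 65.0 and 129 CPM in fibroblast-like cells, with Sec14l3 at 0 in all 6 classes.

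Parathyroid cells carried the highest summed level of the 36 genes among the 6 classes. The sum was 1615 and 1730 CPM in the 2 parathyroid libraries (1672 ± 81.3, SD, n = 2), against 986 ± 24.6 in fibroblast-like, 643 ± 32.3 in endothelial-like, 428 ± 39.9 in dendritic-like, 417 ± 105 in T-cell-like and 398 ± 63.5 in macrophage-like cells. The lower parathyroid library lay above every library of the other classes. Of the 36 genes, 25 had their highest mean in parathyroid cells, and for 23 of them both parathyroid libraries lay above both libraries of the next class. The share of all genes that did so was not counted, so these counts have no background beside them. Fibroblast-like cells held the highest mean of 4 genes (Ift27, Ift81, Arl13b and Tulp3), endothelial-like cells of 3 (Ift43, Ift172 and Tctn1), T-cell-like cells of 3 (Ift140, Traf3ip1 and Ofd1) and macrophage-like cells of 1 (Kif3b). Both libraries of the highest class lay above the next class for all 4 of the fibroblast-like genes, for Kif3b and for Ift43, but for none of the T-cell-like genes.

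**Figure D1:**
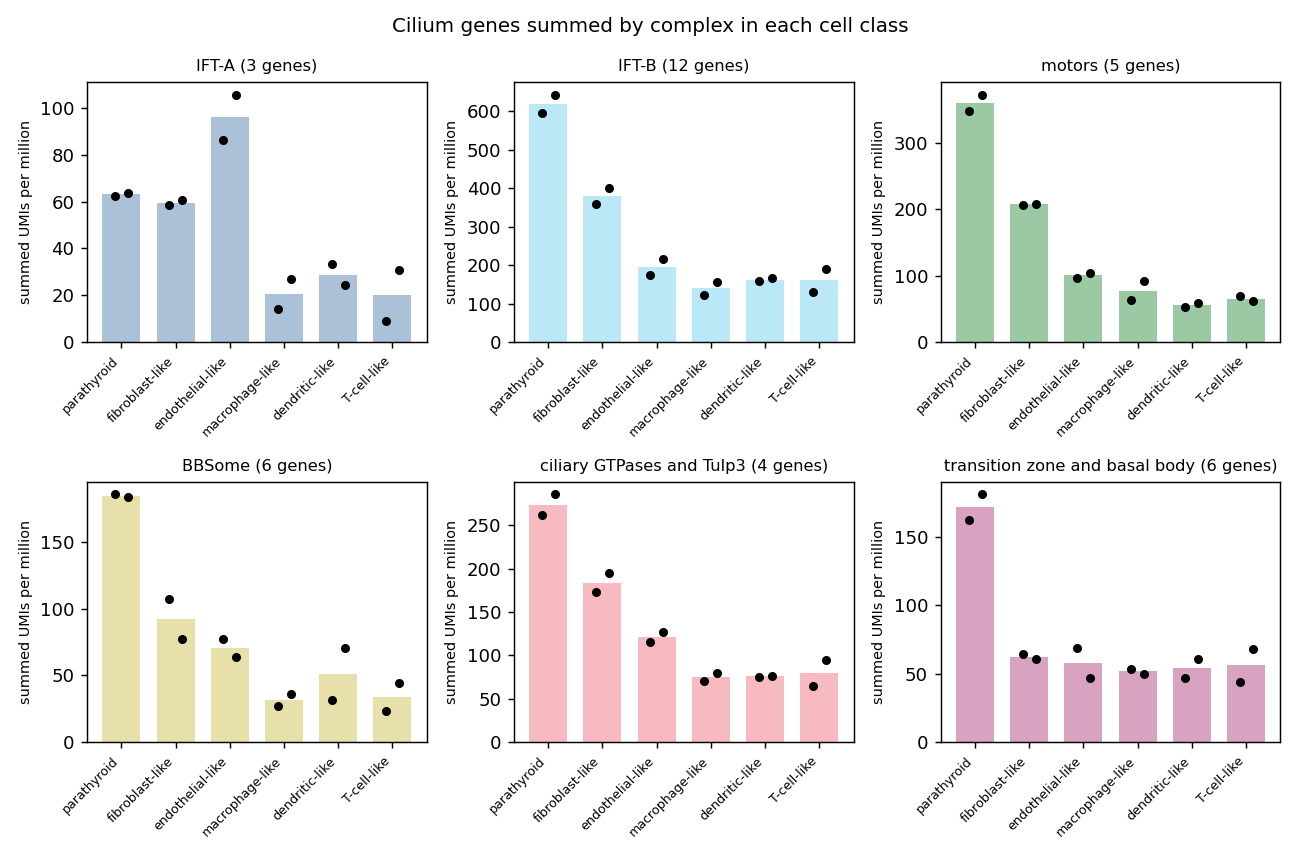
Summed level (CPM) of the genes of each complex in parathyroid cells and 5 other classes; points are the 2 libraries and bars their mean. Parathyroid cells have the highest mean in every panel except IFT-A, where the endothelial-like mean of 95.9 lies above the parathyroid mean of 63.0.

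UMI counts summed per class and library were compared with edgeR's quasi-likelihood test, with library as a block, and a gene was called at a Benjamini-Hochberg adjusted p under 0.05 over the 13285 genes tested. All 36 genes were tested. Against the unweighted mean of the 5 other classes, 32 were called higher in parathyroid cells, 1 lower and 3 were not called, where 36.8% of all tested genes were called higher and 20.1% lower. In all tests, a mean of classes was a mean of fitted log levels, which classes with few UMIs of a gene pull down. A higher call thus need not mean a level far above the mean CPM. Ift43, called higher, had 24.1 CPM in parathyroid cells, beside a mean CPM of 21.9 over the other 5 classes. Against fibroblast-like cells the counts were 25 higher, 2 lower and 9 not called, beside 29.8% and 29.5% of all tested genes. Against endothelial-like cells 27 were higher and 1 lower (28.7% and 25.4% of all genes), and against macrophage-like cells 30 were higher and 1 lower (30.7% and 29.3%). Against dendritic-like cells 28 were higher and 0 lower (32.1% and 25.1%), and against T-cell-like cells 30 were higher and 0 lower (28.3% and 17.6%). Both counts of 0 from edgeR were also 0 at an unadjusted p under 0.05 and with DESeq2. The median log2 fold change of the 36 genes was 0.97 against fibroblast-like cells, where the median of all tested genes was 0.07, and 1.90, 2.04 and 2.36 against endothelial-, macrophage- and dendritic-like cells, where all genes had medians of 0.16, 0.12 and 0.37. These comparisons share the parathyroid libraries, and all p-values measure only how class differences vary between 2 pools of mice. In replicates 1 and 2, no UMI was found for 13 and 6 of the 36 genes in T-cell-like cells, 5 and 3 in dendritic-like cells and 1 and 0 in macrophage-like cells, and 0 of 36 lacked a UMI in fibroblast-like and endothelial-like cells. Class depth moves with these counts, from 432245 and 454314 UMIs in T-cell-like cells to 4953480 and 8904096 in fibroblast-like cells, and its part was not tested.

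**Figure D2:**
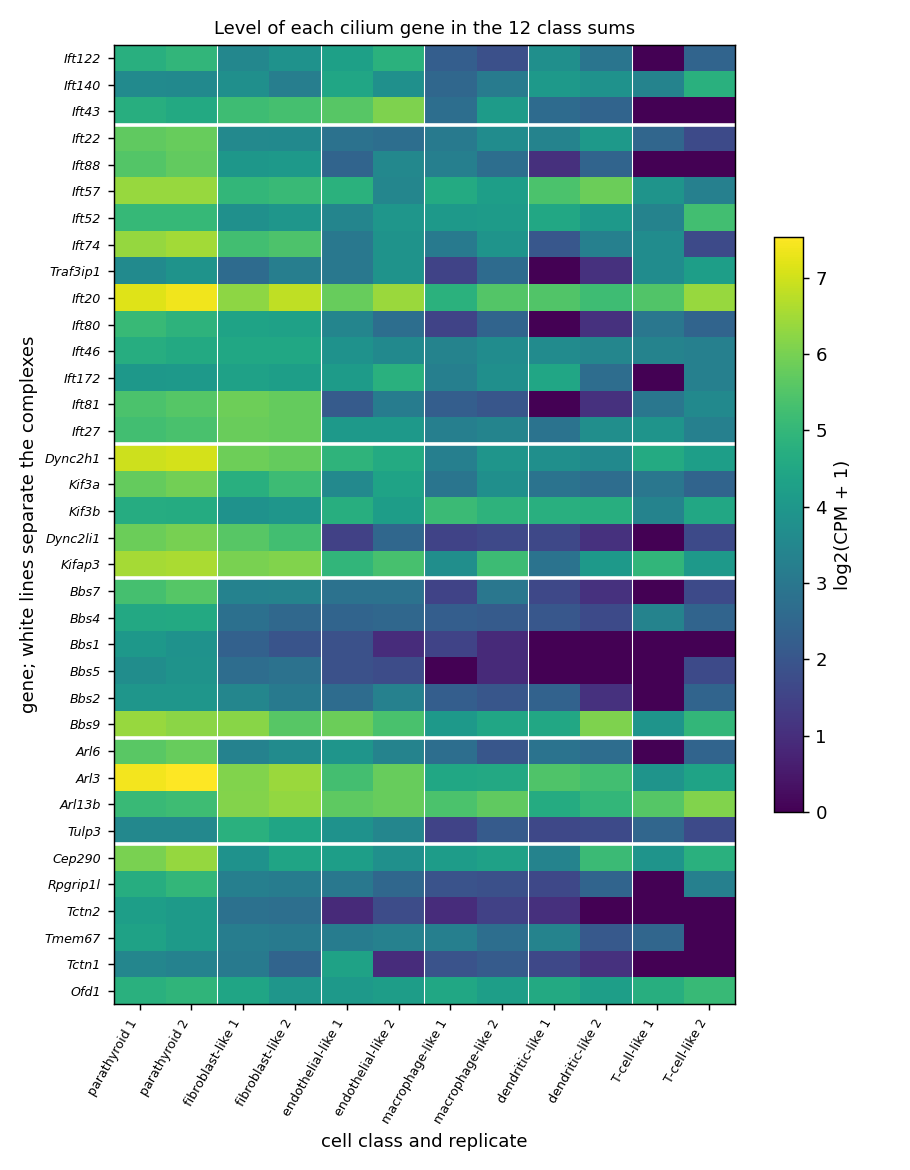
Level of each of the 36 genes, as log2(CPM + 1), in the 12 sums of 6 cell classes and 2 replicates, with each gene to be read along its row. The BBSome rows Bbs1 and Bbs5 reach 0 in dendritic-like or T-cell-like cells, whereas Arl13b is higher in the fibroblast-like columns than in the parathyroid columns.

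The promoters of the genes were searched for the X-box, the motif bound by RFX transcription factors, which are known for driving cilium genes. RefSeq windows on GRCm38.p6 from 250 bases before to 50 after the gene start matched 31 of the 36 genes, and Ift122, Ift80, Ift81, Tmem67 and Dync2li1 were not matched. The X-box consensus with a spacer of 0 to 3 bases, on either strand, lay in 4 of the 31 windows (12.9%), those of Bbs1, Ift57, Tctn1 and Tctn2, where 1.75% of 27025 genes held it. A wider form, GTNNCC and GGNAAC with a spacer of 0 to 3 bases, added Bbs4, Bbs7 and Ift22, making 7 of 31 (22.6%) against 2.68% of all genes. The wider form overlaps the consensus, and it was picked among 5 forms after their counts were known. The windows are shown because they hold the letters counted, which are in capitals and read 5′ to 3′ on the gene's strand.
Ift22, chr5:136908050-136908149, plus strand: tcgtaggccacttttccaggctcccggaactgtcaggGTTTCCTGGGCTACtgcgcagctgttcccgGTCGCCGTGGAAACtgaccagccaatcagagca
Tctn2, chr5:124598649-124598748, plus strand: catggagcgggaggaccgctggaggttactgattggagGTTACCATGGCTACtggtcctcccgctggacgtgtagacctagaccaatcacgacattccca
Ift57, chr16:49699199-49699228, plus strand: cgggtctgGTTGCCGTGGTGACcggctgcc
Bbs7, chr3:36613489-36613518, minus strand: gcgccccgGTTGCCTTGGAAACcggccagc
Bbs1, chr19:4906605-4906634, minus strand: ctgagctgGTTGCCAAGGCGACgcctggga
Bbs4, chr9:59353464-59353493, minus strand: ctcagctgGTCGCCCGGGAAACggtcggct
Tctn1, chr5:122264411-122264440, minus strand: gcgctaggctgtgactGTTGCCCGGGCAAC
Ift22 and Ift57 each held 2 matches, and the Ift22 window shows both. The matches of Ift22, Tctn2, Ift57 and Bbs7 lay before the start, between bases -121 and -20, and those of Bbs1, Bbs4 and Tctn1 lay within the first 50 bases after it. A match of letters does not show binding.

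The IFT-B genes, which build the particle of transport towards the tip, were mostly higher in parathyroid cells. Their sum was 619 CPM in parathyroid cells and 380 CPM in fibroblast-like cells, and 141 to 197 CPM in the other 4 classes. Against fibroblast-like cells edgeR called 8 of 12 higher and 0 lower, beside 29.8% and 29.5% of all tested genes. The log2 fold changes of the 12 ran from -0.39 to 2.37. Of these, 1 was lower at an unadjusted p under 0.05, and 1 with DESeq2. Ift88, a core subunit whose loss blocks cilium assembly in mice, stood at 45.2 and 51.7 CPM in parathyroid cells, 14.7 and 15.6 CPM in fibroblast-like cells and 4.41 and 10.4 CPM in endothelial-like cells. The groups did not overlap, and the log2 fold change of Ift88 was 1.76 against fibroblast-like cells (SE 0.23, adjusted p = 4.55e-05). No Ift88 UMI was found in T-cell-like cells, so its level was at least 19.1-fold higher in parathyroid cells, with the floor set at 3 counts over the class. Ift74, which with Ift81 binds tubulin cargo, stood at 79.9 and 89.6 CPM in parathyroid cells and 36.9 and 42.1 CPM in fibroblast-like cells, a log2 fold change of 1.19 (SE 0.23, adjusted p = 0.000625).

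Ift81, the partner of Ift74, differed from it in the same comparison. It stood at 41.5 and 46.2 CPM in parathyroid cells and 57.9 and 53.2 CPM in fibroblast-like cells, a log2 fold change of -0.25 (SE 0.19, adjusted p = 0.278) that was not called. In the remaining classes Ift81 ranged from 0 to 11.01 CPM, and it was called higher in parathyroid than in endothelial-like cells with a log2 fold change of 3.06 (SE 0.31, adjusted p = 3.43e-06). Ift27, a GTPase-like subunit that acts in the exit of the BBSome from cilia, behaved in the same way in fibroblast-like cells: 37.3 and 40.7 CPM in parathyroid cells against 55.1 and 53.6 CPM, log2 fold change -0.39, adjusted p = 0.0707. The fibroblast-like libraries lay above the parathyroid libraries for both genes without a call. Ift22, another GTPase-like subunit, had the largest log2 fold change of the 12 against fibroblast-like cells, 2.37 (SE 0.20, adjusted p = 5.97e-07), from 50.7 and 54.5 CPM in parathyroid cells against 10.7 and 11.01 CPM in fibroblast-like cells. Ift80 stood at 33.0 and 28.5 CPM in parathyroid cells and 19.8 and 18.9 CPM in fibroblast-like cells, and its call (log2 fold change 0.75, adjusted p = 0.0105) was lost with the DESeq2 test (adjusted p = 0.137) and at 10000 UMIs per cell (0.0599). Ift172, a peripheral subunit of the particle, had 15.1 and 16.0 CPM in parathyroid cells and 18.8 and 17.9 CPM in fibroblast-like cells and was not called in the comparison with the mean of the others (log2 fold change 0.47, SE 0.31, adjusted p = 0.22), though it was called higher there with no filter on low counts (adjusted p = 0.0394).

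The IFT-A genes serve return transport and the entry of membrane receptors. In parathyroid cells edgeR called 2 of 3 higher against the mean of the others and against each immune class, 1 of 3 against fibroblast-like cells and 0 of 3 against endothelial-like cells. Of all tested genes, 36.8% were called higher against the mean of the others and 28.3% to 32.1% against the immune classes. Against endothelial-like and fibroblast-like cells the shares were 28.7% and 29.8%. The 1 of 3 against fibroblast-like cells (33.3%) lies near the latter share. The count of 0 was the same at an unadjusted p under 0.05 and with DESeq2, which called 1 of 3 against macrophage-like cells. Their sum was 63.0 CPM in parathyroid cells, 59.5 CPM in fibroblast-like cells and 95.9 CPM in endothelial-like cells, and 20.0 to 28.9 CPM in the immune classes. Ift122 was called higher against fibroblast-like cells, at 26.0 and 29.9 CPM in parathyroid cells and 10.3 and 13.5 CPM in fibroblast-like cells (log2 fold change 1.31, SE 0.25, adjusted p = 0.000559). Ift122 was not called against endothelial-like cells, where its 18.5 and 26.9 CPM overlapped the parathyroid range. Ift140 had 11.3 and 10.8 CPM in parathyroid cells and 12.5 and 8.31 CPM in fibroblast-like cells and was called in none of the 6 comparisons with parathyroid cells, with adjusted p from 0.222 to 0.971.

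Ift43 was lower in parathyroid than in endothelial-like cells, at 25.2 and 22.9 CPM in parathyroid cells and 46.7 and 65.95 CPM in endothelial-like cells (log2 fold change -0.98, SE 0.25, adjusted p = 0.00687). In fibroblast-like cells it had 35.5 and 38.9 CPM, above both parathyroid libraries, but the difference was not called (log2 fold change -0.53, adjusted p = 0.0691). It was called lower under 5 alternatives, with adjusted p of 0.0232 with DESeq2 size factors, 0.0486 with other Pth limits, 0.049 at resolution 2, 0.0474 with predicted doublets kept and 0.0389 at 5000 UMIs per cell. Its fitted log2 fold change of 2.54 against the mean of the others rests on T-cell-like cells, where no Ift43 UMI was found. With those cells at the floor of 3 counts the value was 0.91, and with all other barcodes joined into 1 class it was -0.19 (adjusted p = 0.287).

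The motor genes were higher in parathyroid cells, at a summed 360 CPM against 208 CPM in fibroblast-like cells and 56.0 to 101 CPM in the other 4 classes. Dync2h1, the heavy chain of dynein-2 that powers return transport, had 124 and 131 CPM in parathyroid cells and 57.1 and 52.9 CPM in fibroblast-like cells. Its log2 fold change was 1.30 (SE 0.18, adjusted p = 4.55e-05), and the remaining 4 classes lay between 8.46 and 29.1 CPM. Dync2li1, the light intermediate chain of the same motor, had 57.0 and 62.2 CPM in parathyroid cells and 46.4 and 37.3 CPM in fibroblast-like cells. The other 4 classes stood apart from both, at 0 to 4.71 CPM of Dync2li1, and the log2 fold change against endothelial-like cells was 4.28 (SE 0.34, adjusted p = 4.91e-07). Against fibroblast-like cells the call of Dync2li1 (0.61, SE 0.20, adjusted p = 0.0197) was lost with DESeq2 size factors (adjusted p = 0.0632), the DESeq2 test (0.273) and at 10000 UMIs per cell (0.0993).

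Among the kinesin-2 genes, Kif3a, a motor subunit, had 52.7 and 60.3 CPM in parathyroid cells and 26.0 and 35.3 CPM in fibroblast-like cells (log2 fold change 0.98, SE 0.19, adjusted p = 0.000766). Kif3b, its partner, followed another order over the classes. It had 24.6 and 23.9 CPM in parathyroid cells, 33.9 and 28.3 CPM in macrophage-like cells, 26.2 and 25.4 CPM in dendritic-like cells and 13.3 and 14.6 CPM in fibroblast-like cells. Kif3b was called higher in parathyroid than in fibroblast-like cells (0.87, SE 0.21, adjusted p = 0.00367) and not called against the mean of the others (0.37, SE 0.17, adjusted p = 0.0909). Against that mean it was called higher with no filter on low counts (adjusted p = 0.0394), at 5000 UMIs per cell (0.0464) and with all other barcodes as 1 class (0.00554). Kifap3, the kinesin-2 cargo adaptor, had 89.95 and 95.4 CPM in parathyroid cells and 63.8 and 68.3 CPM in fibroblast-like cells, which was not called (0.58, SE 0.25, adjusted p = 0.0645). It was called higher with no filter on low counts (adjusted p = 0.0017), at resolution 2 (0.0356), with predicted doublets kept (0.0396) and at 5000 UMIs per cell (0.00654).

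The BBSome genes were called higher in parathyroid cells in 6 of 6 cases against the mean of the others and in 5 of 6 against fibroblast-like cells, where their median log2 fold change was 1.68. Of all tested genes, 36.8% and 29.8% were called higher in these comparisons. Their sum was 185 CPM in parathyroid cells and 92.5 CPM in fibroblast-like cells. Bbs7 (chromosome 3, 36573142 to 36613477) had 39.2 and 45.4 CPM in parathyroid cells, against 9.08 and 9.43 CPM in fibroblast-like cells and 0 to 6.95 CPM in the other 4 classes. The log2 fold change of Bbs7 was 2.29 against fibroblast-like cells (SE 0.24, adjusted p = 4.49e-06) and 3.07 against endothelial-like cells (SE 0.33, adjusted p = 6.97e-06). Bbs4, whose protein joins the BBSome late in its assembly, had 22.6 and 23.0 CPM in parathyroid cells and 5.85 and 4.83 CPM in fibroblast-like cells (log2 fold change 2.20, SE 0.24, adjusted p = 5.28e-06). Both genes separated the parathyroid libraries from every library of the 5 other tested classes.

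Bbs1, the subunit that binds Arl6, and Bbs5 were sparse outside parathyroid cells. Bbs1 had 15.1 and 13.3 CPM in parathyroid cells and 4.04 and 2.92 CPM in fibroblast-like cells (log2 fold change 2.14, SE 0.31, adjusted p = 0.000169). No Bbs1 UMI was found in dendritic-like or T-cell-like cells, which makes it at least 8.53-fold and at least 5.32-fold higher in parathyroid cells. Bbs5 had 11.9 and 13.8 CPM in parathyroid cells and 5.45 and 6.18 CPM in fibroblast-like cells, and was at least 8.13-fold higher than in dendritic-like cells, where it was not found. Bbs9, a structural subunit, was the exception against fibroblast-like cells. It had 82.5 and 73.8 CPM in parathyroid cells and 72.9 and 46.7 CPM in fibroblast-like cells (0.49, SE 0.31, adjusted p = 0.192).

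**Figure D3:**
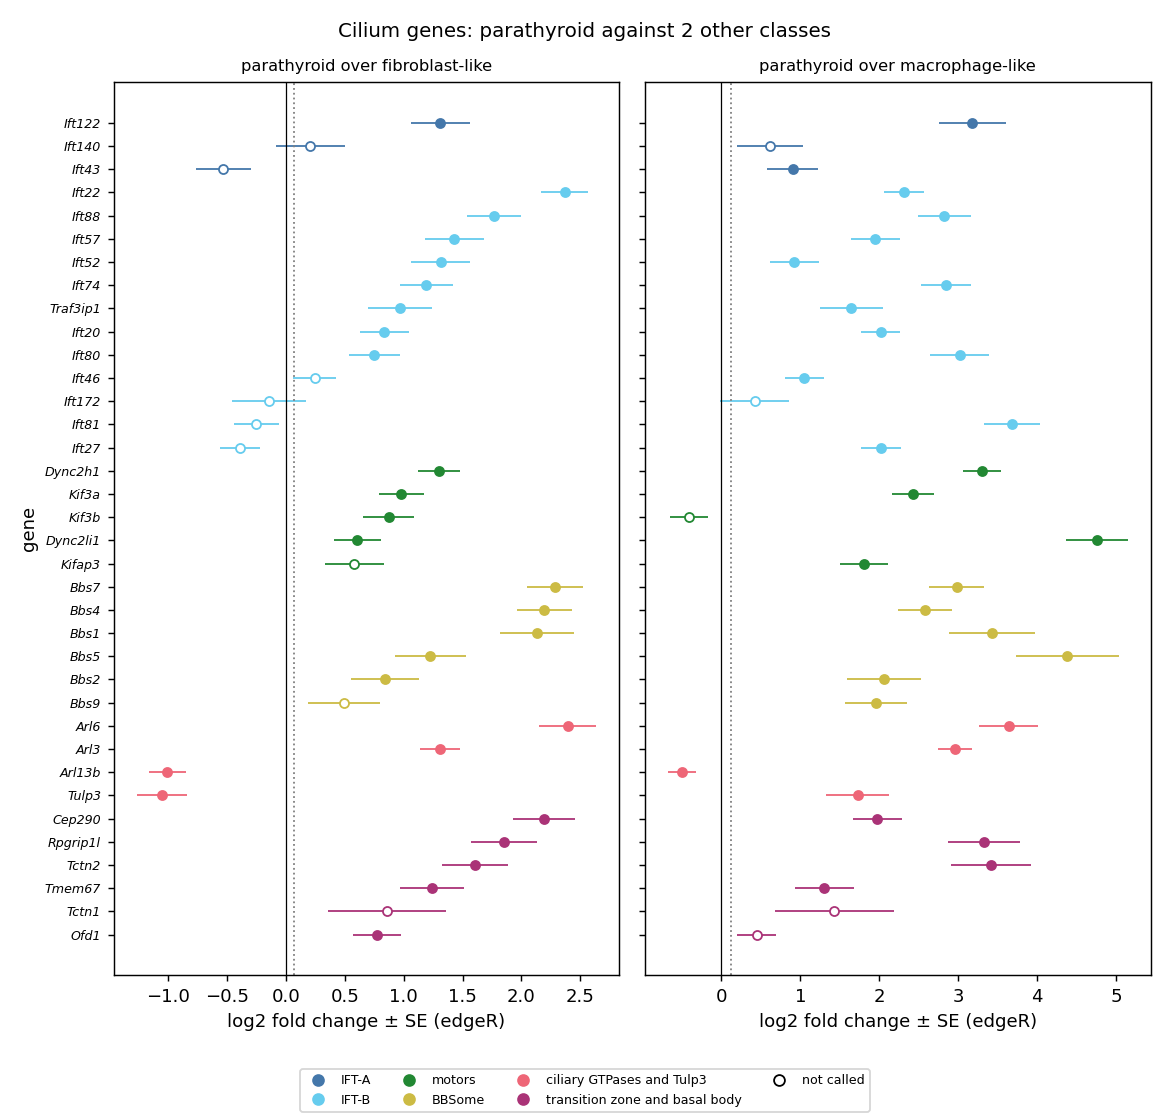
Log2 fold change of parathyroid over fibroblast-like cells (left) and over macrophage-like cells (right) for each gene, with bars of 1 SE from edgeR; filled points were called, colours give the complex and dotted lines the median of all tested genes (0.07 left, 0.12 right). Arl13b and Tulp3 lie below 0 on the left, and Arl13b also on the right.

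The small GTPases and Tulp3 were called in both directions against fibroblast-like cells. Arl6, which recruits the BBSome to membranes, had 47.8 and 54.6 CPM in parathyroid cells and 9.08 and 11.3 CPM in fibroblast-like cells (log2 fold change 2.39, SE 0.24, adjusted p = 3.18e-06). Arl3, which releases lipid-anchored proteins inside the cilium, had 169.5 and 185 CPM in parathyroid cells and 68.6 and 83.6 CPM in fibroblast-like cells (1.31, SE 0.17, adjusted p = 3.03e-05). Both were called higher in parathyroid cells in all 6 comparisons.

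Arl13b, a membrane GTPase of the cilium that activates Arl3, was lower in parathyroid than in fibroblast-like cells. It had 33.4 and 35.8 CPM in parathyroid cells and 69.2 and 79.2 CPM in fibroblast-like cells (log2 fold change -1.01, SE 0.16, adjusted p = 0.000121). Its other classes ranged from 24.1 to 68.2 CPM, so that the fibroblast-like libraries lay above all of them. The lower call of Arl13b against the mean of the others (-0.37, SE 0.13, adjusted p = 0.0285) was lost without the library block, without a filter on low counts, with classes set by markers per barcode and at 5000 UMIs per cell. Tulp3, which carries membrane receptors into the cilium with IFT-A, had 10.5 and 10.4 CPM in parathyroid cells and 26.4 and 20.4 CPM in fibroblast-like cells (-1.05, SE 0.22, adjusted p = 0.00102). Macrophage-, dendritic- and T-cell-like cells had 1.88 to 4.63 CPM of Tulp3. Its higher call against the mean of the others (1.02, adjusted p = 0.00294) was against a mean over classes that lie above and below parathyroid cells, and with all other barcodes as 1 class it was -0.32 (adjusted p = 0.123). That call was also lost at 5000 UMIs per cell (adjusted p = 0.212).

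The transition zone and basal body genes summed to 172 CPM in parathyroid cells and to 51.8 to 62.4 CPM in the other 5 classes. Of 6 genes, 5 were called higher against fibroblast-like cells and 6 against the mean of the others, beside 29.8% and 36.8% of all tested genes. With DESeq2 the counts were 4 and 5 of 6. Cep290, a large protein that bridges microtubules and membrane in the transition zone, had 64.3 and 79.6 CPM in parathyroid cells and 13.3 and 20.2 CPM in fibroblast-like cells (log2 fold change 2.20, SE 0.26, adjusted p = 1.4e-05). Rpgrip1l, a scaffold of the same zone, had 24.7 and 31.0 CPM in parathyroid cells and 8.48 and 7.97 CPM in fibroblast-like cells (1.85, SE 0.28, adjusted p = 9.37e-05). The parathyroid libraries lay above all libraries of the other 5 classes for both genes. Tctn2, a tectonic of the gate, had 17.7 and 16.1 CPM in parathyroid cells and 6.06 and 5.73 CPM in fibroblast-like cells (1.60, SE 0.28, adjusted p = 0.000448). Tmem67, a membrane protein of the gate, had 19.2 and 16.2 CPM in parathyroid cells and 8.08 and 7.64 CPM in fibroblast-like cells (1.24, SE 0.27, adjusted p = 0.0018).

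Tctn1, another tectonic, was the gene of this set not called against fibroblast-like cells (0.86, SE 0.50, adjusted p = 0.166). No UMI of Tctn1 or Tctn2 was found in T-cell-like cells. With those cells at the floor of 3 counts, the log2 fold changes against the mean of the others fell from 3.05 to 1.46 for Tctn1 and from 4.77 to 3.20 for Tctn2. Tctn1 had 10.1 and 9.18 CPM in parathyroid cells and 7.67 and 4.38 CPM in fibroblast-like cells. Its endothelial-like value of 19.4 CPM in replicate 1 came from 22 UMIs in 1 of 106 cells, and replicate 2 had 0.942 CPM. Ofd1, a basal body protein, had 26.3 and 29.2 CPM in parathyroid cells and 14.6 to 33.0 CPM over the other 5 classes, and was called higher against fibroblast-like cells (0.77, SE 0.20, adjusted p = 0.00525) but not against any immune class.

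Single cells were compared at equal depth by drawing 10000 UMIs from each cell. The median number of the 36 genes with a UMI was then 11 and 12 per parathyroid cell in replicates 1 and 2, against 7 and 8 per fibroblast-like, 5 and 5 per endothelial-like, 2 and 4 per macrophage-like, 3 and 3 per dendritic-like and 2 and 3 per T-cell-like cell. At full depth the medians were 23 and 22 per parathyroid cell and 12 and 12 per fibroblast-like cell. Cells with fewer UMIs were left out, among them 21 and 60 parathyroid cells and 19 and 24 fibroblast-like cells. Larger shares were lost of endothelial-like cells (50 of 106 and 237 of 270) and T-cell-like cells (8 of 36 and 38 of 51). The T-cell-like medians thus rest on 28 and 13 cells. For Ift88, a UMI was found in 32.4% and 37.9% of thinned parathyroid cells, 12.2% and 12.3% of thinned fibroblast-like cells and 7.55% and 5.51% of thinned macrophage-like cells, and at full depth in 74.4% and 74.1% of parathyroid cells and 23.3% and 22.2% of fibroblast-like cells. Arl13b ran the other way, with 25.8% and 28.9% of thinned parathyroid cells and 45.5% and 49.3% of thinned fibroblast-like cells. Over the 36 genes the median share of parathyroid cells with a UMI was 63.3% and 58.3% at full depth and 25.0% and 26.3% at 10000 UMIs.

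**Figure D4:**
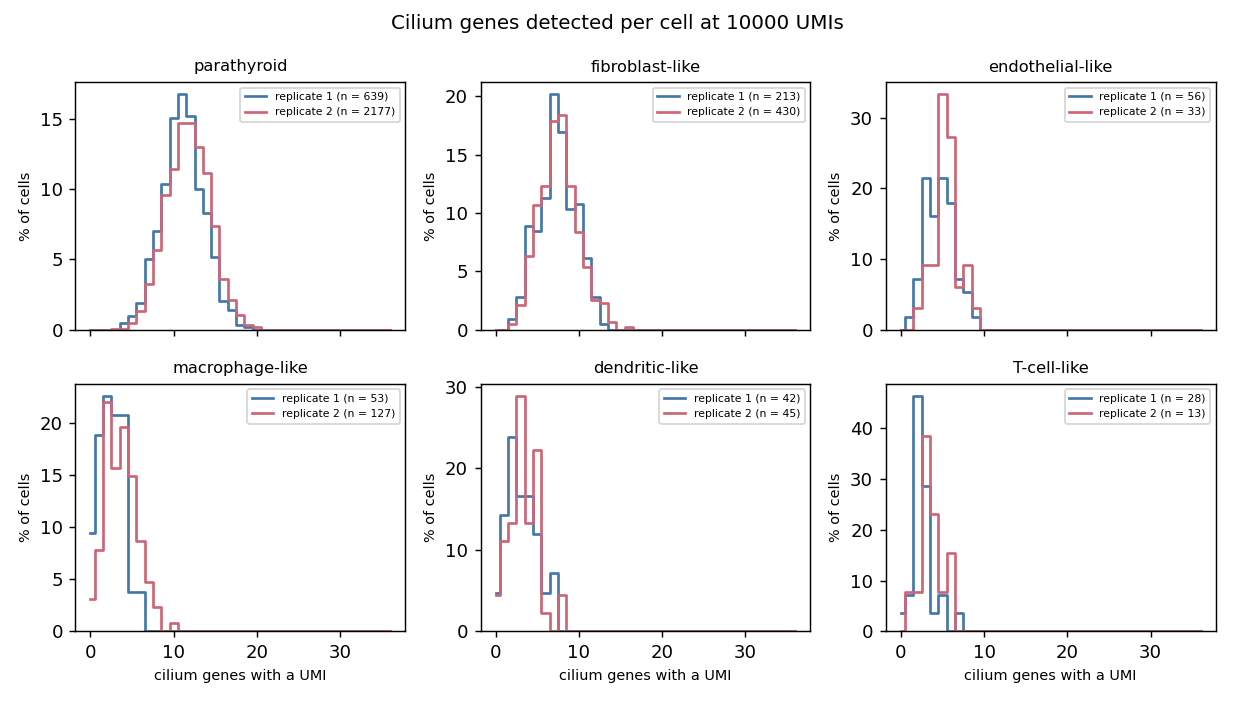
Share of cells (%) by the number of the 36 genes with a UMI after thinning to 10000 UMIs, for each class and replicate. The parathyroid medians are 11 and 12 genes, those of fibroblast-like cells 7 and 8, and those of the 3 immune classes 2 to 4.

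The same genes also separated fibroblast-like cells from immune cells. Against the mean of the macrophage-, dendritic- and T-cell-like classes, 26 of 36 were called higher in fibroblast-like cells and 1 lower, where 33.2% of all tested genes were called higher and 20.4% lower. Ift81 had a log2 fold change of 4.47 in this comparison (SE 0.30, adjusted p = 1.11e-07) and Dync2li1 of 4.74 (SE 0.34, adjusted p = 2.22e-07). Kif3b was the gene called lower, at -0.71 (SE 0.24, adjusted p = 0.0258). Of the 6 transition zone and basal body genes 2 were called higher (Rpgrip1l and Tctn2), whereas all 4 of the GTPases and Tulp3 were. Levels of the 36 genes within the fibroblast-like class were close over its 5 clusters, from 947 to 1047 CPM.

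Other genes of the same machinery were read from companion lists. Of 14 tested genes for further IFT subunits and motors, 8 were called higher and 1 lower in parathyroid than in fibroblast-like cells, beside 29.8% and 29.5% of all genes. Wdr35, an IFT-A subunit, had 58.5 and 61.1 CPM in parathyroid cells and 20.2 and 21.1 CPM in fibroblast-like cells (log2 fold change 1.62, SE 0.22, adjusted p = 3.43e-05), unlike Ift43 and Ift140. Wdr34 and Wdr60, the intermediate chains of dynein-2, were higher by log2 fold changes of 1.98 (SE 0.24) and 1.32 (SE 0.23), with adjusted p = 1.54e-05 and 0.000425. Dynlrb1, a dynein light chain that cytoplasmic dynein shares, had 97.7 and 104 CPM in parathyroid cells and 105 and 97.8 CPM in fibroblast-like cells and was not called. The copies Ttc30a1, Ttc30a2 and Ttc30b are near identical, and their counts are uncertain.

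The lists of the gate and the base are read beside the same 29.8% of all tested genes called higher and 29.5% called lower. Of 4 further BBSome genes, 2 were called higher against fibroblast-like cells (Ttc8 and Lztfl1) and 0 lower by edgeR, as at an unadjusted p under 0.05 and with DESeq2. Of 16 further transition zone genes 9 were higher and 1 lower, among them Tmem231 with 20.1 and 22.1 CPM in parathyroid cells and 5.45 and 4.83 CPM in fibroblast-like cells (log2 fold change 2.14, SE 0.26, adjusted p = 1.5e-05). Of 14 genes of distal appendages and cap removal, which dock the basal body, 6 were higher (42.9%, nearer to the share of all genes) and 1 lower. Cep164, a distal appendage protein, had 56.6 and 69.0 CPM in parathyroid cells and 19.6 and 23.4 CPM in fibroblast-like cells (1.63, SE 0.22, adjusted p = 3.53e-05).

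Of 10 tested genes for proteins of the ciliary membrane or their carriers, 2 were called higher in parathyroid than in fibroblast-like cells and 6 lower, beside 29.8% and 29.5% of all tested genes. The full list held Smo, Ptch1, Evc and Evc2, which act in Hedgehog signalling, so it is not independent of the Hedgehog list below. Their median log2 fold change was -0.60, where that of all tested genes was 0.07. Pkd1 and Pkd2 encode the polycystins of the primary cilium. Pkd1 had 17.9 and 16.5 CPM in parathyroid cells and 61.6 and 67.7 CPM in fibroblast-like cells (-1.83, SE 0.17, adjusted p = 1.42e-06), and Pkd2 had 60.4 and 52.9 CPM in parathyroid cells and 97.7 and 94.6 CPM in fibroblast-like cells (-0.68, SE 0.17, adjusted p = 0.00465). Smo, the transducer of Hedgehog signals, had 44.3 and 35.1 CPM in parathyroid cells and 64.8 and 55.5 CPM in fibroblast-like cells (-0.51, SE 0.20, adjusted p = 0.0442), but it was called higher against the mean of the 5 other classes (2.07, SE 0.21, adjusted p = 4.23e-06). Against that mean edgeR called 8 of the 10 membrane genes higher and 0 lower, beside 36.8% and 20.1% of all tested genes; 1 was lower at an unadjusted p under 0.05 and 1 with DESeq2.

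Genes of Hedgehog transduction, a pathway that signals through the cilium in mammals, gave 0 of 9 higher and 8 of 9 lower in parathyroid than in fibroblast-like cells by edgeR, beside 29.8% and 29.5% of all tested genes; the count of higher genes was also 0 at an unadjusted p under 0.05 and with DESeq2. Against the mean of the 5 other classes edgeR called 2 of 9 higher and 2 lower, beside 36.8% and 20.1% of all tested genes. In fibroblast-like against immune cells 8 of 9 were called higher, beside 33.2% of all tested genes. Cdon, a Hedgehog co-receptor, had 1.82 and 2.17 CPM in parathyroid cells and 192 and 137 CPM in fibroblast-like cells (log2 fold change -6.24, SE 0.27, adjusted p = 5.66e-09). The Gli genes, picked after their values were seen, encode the transcription factors of the pathway. Gli3 had 2.71 and 1.89 CPM in parathyroid cells and 107 and 72.6 CPM in fibroblast-like cells, Gli2 had 0 and 0.266 CPM against 43.2 and 26.7 CPM, and Gli1 had 0.066 and 0 CPM against 9.89 and 7.30 CPM. The parathyroid level of Gli3 was close to that of the macrophage-like class, 1.88 and 2.17 CPM. Hhip, a Hedgehog-binding protein that the pathway induces, was the exception, at 9.31 and 21.9 CPM in parathyroid cells and 15.9 and 14.6 CPM in fibroblast-like cells.

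**Figure D5:**
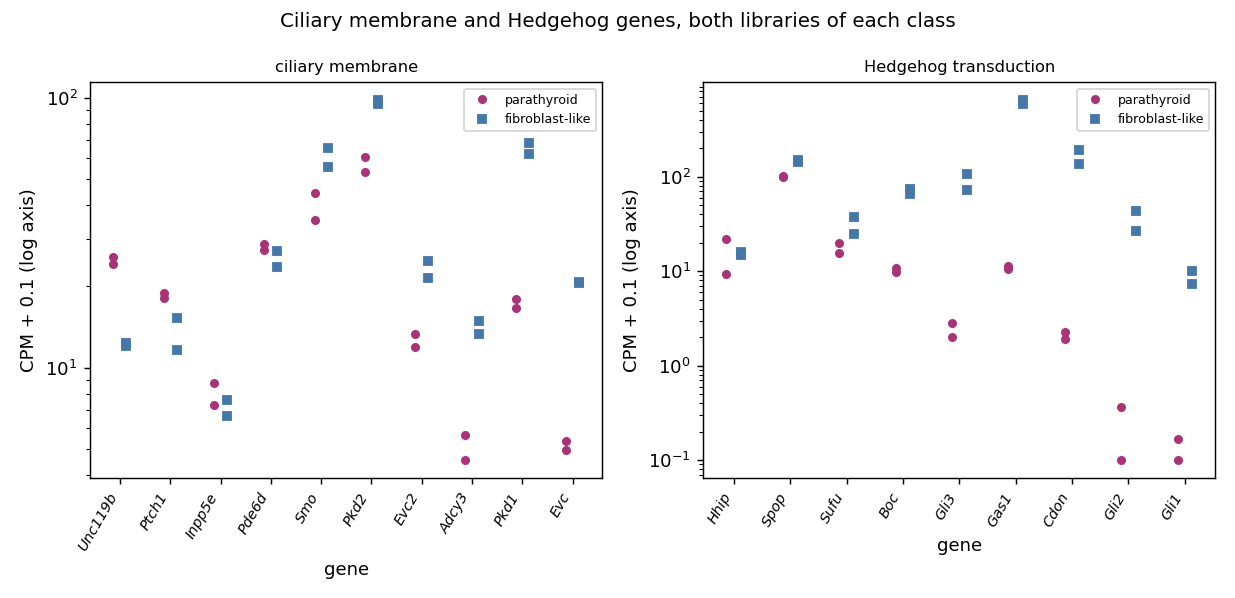
Level (CPM + 0.1, log axis) of the tested ciliary membrane genes (left) and Hedgehog transduction genes (right) in parathyroid cells (circles) and fibroblast-like cells (squares), 1 mark per library. Cdon, at 1.82 and 2.17 CPM in parathyroid cells, lies far below the fibroblast-like marks of 192 and 137 CPM, whereas the marks of Hhip overlap.

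Of 6 tested transcription factor genes linked to ciliogenesis, 2 were called higher and 0 lower in parathyroid than in fibroblast-like cells by edgeR, and 0 were lower at an unadjusted p under 0.05 or with DESeq2. The 2 of 6 (33.3%) lie near the 29.8% of all tested genes called higher. Rfx7 had 89.9 and 87.5 CPM in parathyroid cells and 58.9 and 38.6 CPM in fibroblast-like cells (0.98, SE 0.19, adjusted p = 0.000645). Rfx3, which drives cilium genes in mice, had 59.8 and 54.0 CPM in parathyroid cells and 89.2 and 58.6 CPM in fibroblast-like cells and was not called (-0.26, SE 0.23, adjusted p = 0.364). Rfx2 had 26.7 and 14.5 CPM in parathyroid cells and 18.8 and 15.6 CPM in fibroblast-like cells, which overlap. Foxj1, the master factor of motile cilia, was not tested in the fit and had 8.12 and 5.93 CPM in parathyroid cells and 1.61 and 0.898 CPM in fibroblast-like cells.

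The 36 genes were also compared between the pools within parathyroid cells. The ratio of replicate 2 to replicate 1 in CPM ranged from 0.844 for Tmem67 to 1.26 for Rpgrip1l, with a median of 1.07. Of 10859 genes with at least 200 UMIs, the 5th to 95th percentile ran from 0.703 to 1.29, and each of the 36 lay within it. Counting error widens that range for genes with few UMIs. Each of the 36 had at least 962 UMIs, so lying within the range decides little. The 95% interval of the ratio, which covers counting error only, lay above 1 for 19 genes, below 1 for 6 and held 1 for 11. Cep290, at 64.3 and 79.6 CPM in replicates 1 and 2, was among the genes with the largest ratios (1.24, interval 1.17 to 1.30). With 1 library on each side, these ratios have no test.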

How the data were processed

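The files hold UMI counts, not normalized, as the authors deposited them. The submitters' processing notes name Cell Ranger 7.0.0 and mm10; the way cell barcodes were told from empty droplets was not stated there. Cells were sorted to exclude doublets, per the labels' protocols. The 2 libraries held 1406 and 3518 barcodes with 41517620 and 88283761 UMIs.

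Removed were 147 and 199 barcodes with under 500 genes, 15% or more mitochondrial UMIs or 5% or more from haemoglobin genes, and doublets predicted by Scrublet, which marked 1.64% and 0.171% of barcodes; the second share is too low to show that it worked. Between 1% and 5% Pth, 14 and 22 cells were left out. The rest with under 1% Pth were clustered with scanpy 1.11.5 (2000 variable genes, 30 components, 15 neighbours, Leiden resolution 1), with 130 cilium and reporter genes kept out. Clusters were named from 107 markers by a score of at least 0.5 with at least 3 markers detected, a rule set after seeing the clusters. Median UMIs per cell fell under those of parathyroid cells in every other class, so that shares of cells were also given at 10000 UMIs.

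Sums of UMIs were formed by library for 6 classes, those reaching 20 cells in both libraries. edgeR 4.0.16 (R 4.3.3, TMM, filterByExpr, quasi-likelihood test) was fitted on these 12 sums with library as a block, leaving 5 residual degrees of freedom. The fit was also run on simulated data, where all classes had the same levels apart from changes put into the parathyroid class. Real classes differ more widely, so that run does not show how the test behaves on them. The block comes from the design: the classes of a library are from the same mice. CPM values were computed here, and the SE is the log2 fold change over the root of F. Alternatives were DESeq2 1.42.0 and its size factors, no filter, no block, other limits for Pth, clusters and depth, and each replicate left out. Another left out the genes Pth, Chga and tdTomato. Intervals and floors (95%, 3 counts) cover counting error only.

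The 36 genes, the 7 companion lists (92 genes) and the tests were chosen with earlier results of these data known. Named in full were up to 4 genes of each complex with the largest change against the mean of the others and at least 10 CPM, the uncalled gene of highest CPM, and, for companions, up to 3 called genes of smallest p and the uncalled gene of highest CPM. Ift22, Ift27, Bbs9, Tctn1, Ofd1, Foxj1 and the Gli genes were added after their values were seen. One companion gene picked in this way is not reported here.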

Additional observations from a re-analysis of the deposited data

How the results depend on the processing

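The number of genes called higher stayed within 1.5 times the main count in all 7 comparisons and all alternatives that gave a test: 24 to 34 against the mean of the others, 17 to 28 against fibroblast-like, 20 to 27 against endothelial-like, 22 to 31 against macrophage-like, 21 to 31 against dendritic-like and 22 to 31 against T-cell-like cells, and 19 to 26 for fibroblast-like against immune cells. The lowest counts came from cells thinned to 10000 UMIs, where 27 of the 36 genes were tested (30 at 5000 UMIs). Counts of lower calls, 1 or 2, moved more. Against the mean of the others the count was 0 with no filter, no replicate block, the marker gate per barcode and 5000 UMIs, and against macrophage-like cells it was 0 with the same 4 and at resolution 2. Against fibroblast-like cells it was 4 with DESeq2 size factors. Against endothelial-like cells it was 2 with DESeq2 size factors and the DESeq2 test, and 0 at 10000 UMIs. For fibroblast-like against immune cells it was 0 at resolution 2, 10000 and 5000 UMIs. With the library block left out no other count moved by over 1.5 times. Turned in sign were Ift43 (-0.19) and Tulp3 (-0.32) with all other barcodes as 1 class, which weights classes by their UMIs, and the IFT-A median against fibroblast-like cells, which was -0.0327 without replicate 2 and 0.451 without replicate 1; the cause was not tested. The median share of parathyroid cells with a UMI was 60.77% over both libraries, 25.68% at 10000 UMIs and 14.33% at 5000, a thinner draw chosen after seeing the data. DESeq2 size factors moved the median of all genes against the mean of the others to 0.05, against 0.19 with TMM, and the DESeq2 test moved the share of higher among called genes to 48.7%, against 64.7%. Leaving out a replicate gives values with no test. Depth limits the T-cell-like and dendritic-like classes, where several genes had no UMI.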

Other observations

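Some small groups of cells held cilium genes at levels that were not tested. Ift43 had 24.1 ± 1.61 CPM (SD, n = 2) in parathyroid cells and 153 CPM (95% counting interval 115 to 199) in the 32 pericyte-like cells. Bbs9 had 78.2 ± 6.09 CPM in parathyroid cells, against 167 CPM (130.4 to 211) in the 31 NK- or ILC-like cells and 227 CPM (186 to 275) in an unnamed cluster of 48 cells led by Areg, Il1rl1 and Il5. Bbs1, Bbs5 and Bbs7, which encode other BBSome subunits, had 0 or 1 UMI each in both of these groups. In the NK- or ILC-like cells and the unnamed cluster, Bbs2 had 1 and 3 UMIs and Bbs4 had 2 and 3 UMIs. The parathyroid class held 1672 ± 81.3 CPM of the 36 genes, and an unnamed cluster of 14 cells that carried parathyroid markers but only 0.684% of UMIs from Pth held 2108 CPM (1776 to 2485).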
